A study of Caenorhabditis elegans with 8 samples.

Results

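The genes described here make, load, recycle and sense the transmitter GABA, or set up the neurons that use it. They were unc-25, unc-47, unc-46, snf-11, unc-49, gab-1, exp-1, lgc-35, unc-30 and lim-6. All array probes whose target name, without its isoform letter, belongs to one of these genes were taken, whatever their values. This gave 36 of the 43603 probes on the array, for 10 of the 19794 genes that could be named.

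GABA is made from glutamate, packed into synaptic vesicles, released, sensed by receptors on the receiving cell and taken up again by a transporter in the plasma membrane. In Caenorhabditis elegans it relaxes body wall muscle on the side opposite to a contraction, and it excites enteric muscles during defecation. RIS is a GABAergic interneuron that promotes sleep, and aptf-1, which encodes an AP2 family transcription factor, is expressed in it. Genes of this set are also used outside RIS, in motor neurons, other interneurons or muscle. In RNA of whole larvae, fewer cells of a type and less RNA per cell cannot be told apart, and RIS is only a small part of the tissue measured.

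Total RNA came from whole hermaphrodites at the L4 stage, all called sleeping in the labels and all grown at 21.5 °C on plates with E. coli OP50. One group carried gk794, a deletion allele of aptf-1, and the other was the wild-type strain N2. The paper on these data reports no detectable immobility in aptf-1 mutants at the time of sleep. Genotype and sleep behavior can therefore not be told apart here. There were 4 biological samples per genotype, with about 200 animals per sample. One Agilent array with a single dye was used for each sample. Signal well above background was found on 72.2% to 79.7% of the spots of an array, and 0 spots were saturated.

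Values are log2 intensities relative to the 75th percentile of the array, and a difference is the aptf-1(gk794) mean minus the N2 mean. Levels of different probes cannot be set against each other, so genes are compared only through their differences. A gene is named as called where the p of limma, adjusted over all 18313 genes tested, was under 0.05 and the change was at least 1.5-fold, which is 0.58 on the log2 scale. These 18313 include probe targets that could not be named, each counted as a gene. Shares of all genes given below include them. The arrays lay on 2 slides of 4, each with 2 arrays of each genotype. N2 always held the first positions of a slide and the mutant the last, so genotype and position cannot be told apart. On the first principal component (35.9% of the variance) the mutant arrays with replicate numbers 2 and 4 lay at 73.2 and 62.5, and the other 6 lay between -32.5 and -11.1. Both of these mutant arrays held the last of the 4 positions of their slide.

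The labels were checked with aptf-1 itself and with the neuropeptide gene flp-11, whose peptides are released by RIS. The paper reports flp-11 as lower in aptf-1 mutants partly from these same arrays, so its value here is no independent check. Its other evidence came from embryo arrays and reporter lines. The aptf-1 probe read -5.34, -5.24, -5.18 and -5.58 in N2. The mutant arrays gave -5.96, -7.22, -4.29 and -7.13. The array labelled aptf-1(gk794) replicate 3 thus gave the highest of the 8 values, and the groups overlapped. The difference was -0.82 with a two-sided exact permutation p of 0.314 over 70 assignments. Fits without 1 array ranged from -1.44, without mutant replicate 3, to -0.46. Without both mutant arrays of replicates 2 and 4 the aptf-1 difference turned to 0.21. Its signal clearly exceeded background on all 4 arrays from N2 but on only 2 from the mutant, so the size of the difference is uncertain. Whether the probe lies inside the deleted stretch is not given in the sources used here. flp-11 was lower by 1.18 on the log2 scale (SE 0.07, adjusted p = 0.00275 in limma), at 44.1% of the N2 level (95% interval 39.4% to 49.3%). The array labelled aptf-1(gk794) replicate 3 read -0.69 for flp-11, beside -0.68, -0.71 and -0.64 on the other mutant arrays.

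Of the 10 GABA genes, 0 were called, where 0.0928% of all genes were (17 of 18313). The plasma membrane transporter snf-11 had the lowest mutant mean relative to N2, at 67.2%, and its groups did not overlap. The GABA-synthesizing enzyme unc-25 was at 111.6% of the N2 level, also with groups that did not overlap. The other 8 genes lay between 91.0% and 110.9% with overlapping groups. At an unadjusted p under 0.05, 1 of the 10 genes passed, snf-11, where 12.2% of all genes passed in either direction and 7.76% passed lower in the mutant. Groups that did not overlap were seen in 2 of 10, beside 8.11% of all genes (3.1% higher and 5.01% lower). Lower mutant means were found in 6 of 10, beside 54.7% of all genes, and the median difference was -0.045, beside -0.026 over all genes. For 9 of the 10 genes, all but snf-11, the 95% interval of the difference lay within a 1.5-fold change in either direction, as it did for 61.7% of all genes.

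**Figure D1:**
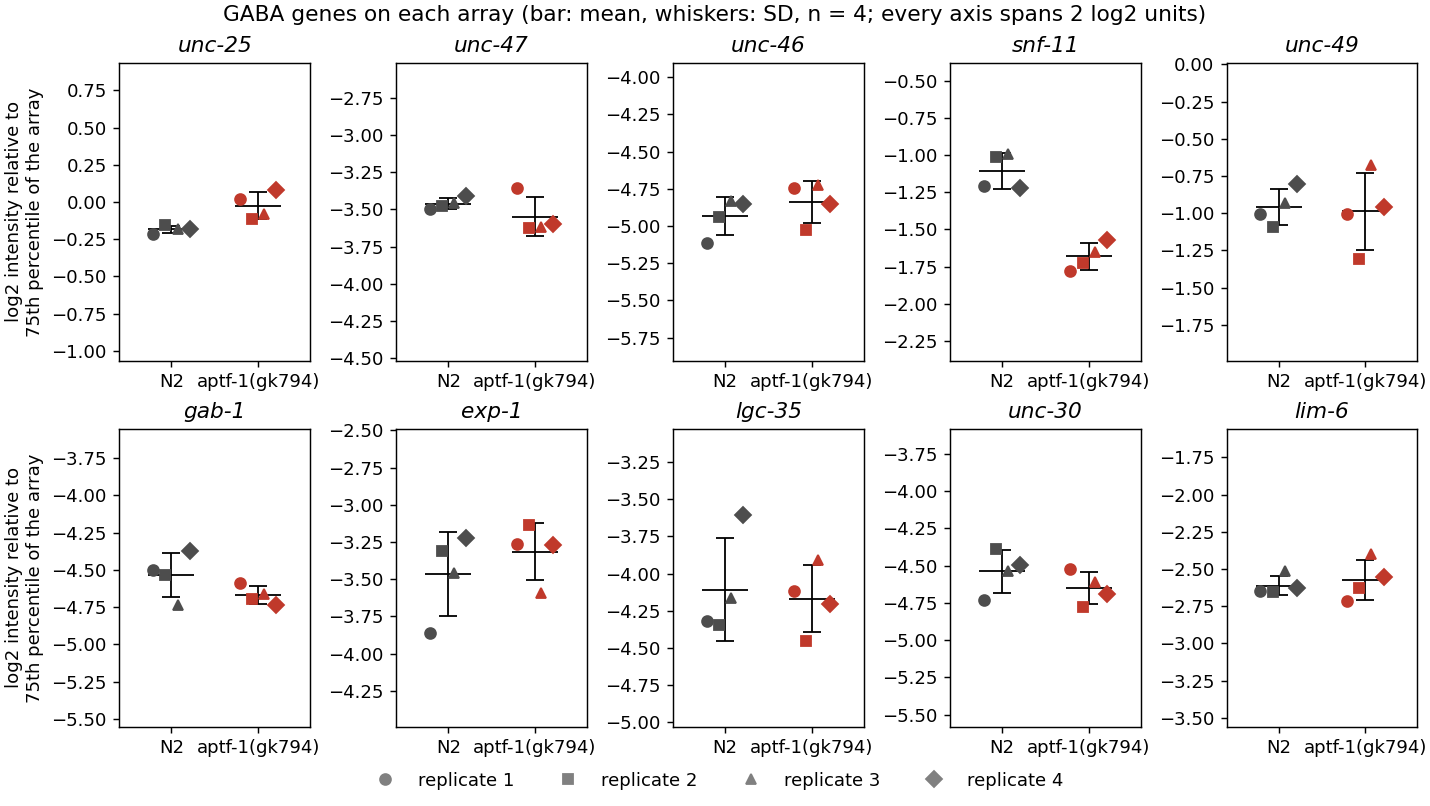
Log2 intensity relative to the 75th percentile of the array (vertical axis) of the 10 GABA genes on the 4 N2 arrays (gray) and the 4 aptf-1(gk794) arrays (red), with marker shapes for the replicate numbers, a bar at the mean and whiskers for the SD. The 4 mutant arrays lie below all N2 arrays for snf-11 and above them for unc-25, and the groups overlap in the other 8 panels.

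**Figure D2:**
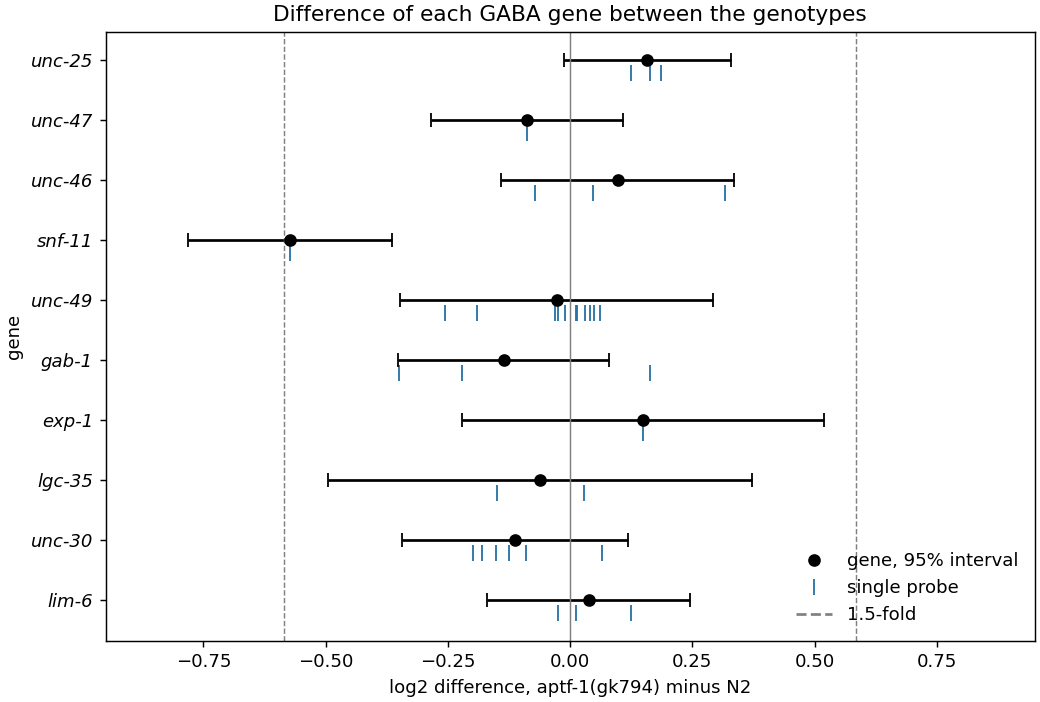
Log2 difference between the genotypes (horizontal axis) of each gene, with its 95% interval as a bar and its tested probes as blue ticks below it. The interval of snf-11, from -0.78 to -0.36, is the only one that crosses the dashed line of a 1.5-fold change, and the interval of unc-25 runs from -0.013 to 0.33.

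Synthesis rests on unc-25 (Y37D8A.23, chromosome III), which encodes glutamic acid decarboxylase, the enzyme that turns glutamate into GABA. Its level was -0.21, -0.15, -0.18 and -0.18 on the N2 arrays. On the mutant arrays it was 0.021, -0.12, -0.082 and 0.078. The lowest mutant array, replicate 2, lay just above the highest N2 array. The N2 mean was -0.18 ± 0.024 (SD, n = 4) and the mutant mean -0.025 ± 0.090 (SD, n = 4). The difference of 0.16 (SE 0.07, 95% interval -0.013 to 0.33) had an adjusted p of 0.426 in limma, so unc-25 was not called. In relative terms the interval ran from 99.1% to 125.7% of the N2 level. Within slide 1 the difference was 0.15 and within slide 2 it was 0.17.

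All 3 unc-25 probes were higher in the mutant. A_12_P117215, designed on transcript Y37D8A.23c, gave a difference of 0.19 (SE 0.08, adjusted p = 0.428 over all probes in limma). Y37D8A.23b was the target of the other 2, A_12_P112891 with 0.16 and A_12_P115609 with 0.12. The groups did not overlap for A_12_P117215 and A_12_P112891. For A_12_P115609 the mutant array of replicate 2, at 0.037, lay below the highest N2 array at 0.062. The same mutant array was the lowest of its group on A_12_P112891 too, at -0.34, next to an N2 maximum of -0.35.

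Loading of GABA into vesicles needs unc-47 (T20G5.6, chromosome III), the vesicular GABA transporter, and unc-46 (C04F5.3, chromosome V), a LAMP-like membrane protein that sorts UNC-47 to synaptic vesicles. For unc-47, represented by 1 probe, the N2 arrays read -3.49, -3.48, -3.46 and -3.41. The mutant arrays read -3.36, -3.62, -3.62 and -3.60. Replicate 1 of the mutant was thus above all N2 arrays and the other 3 were below them. The difference of -0.088 (SE 0.09, adjusted p = 0.652 in limma) left room for 82.1% to 107.8% of the N2 level. It was -0.014 on slide 1 and -0.16 on slide 2, and -0.15 over all arrays but mutant replicate 1.

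unc-46 had 4 probes, of which 3 were tested. The mean of those 3 was -5.11, -4.94, -4.83 and -4.85 in N2. In the mutant it was -4.74, -5.03, -4.72 and -4.85. The mutant values spanned a slightly higher range that overlapped with that of N2. The difference was 0.097 (SE 0.10, adjusted p = 0.680 in limma), at 106.9% of the N2 level with a 95% interval of 90.7% to 126.2%. Both slides gave a value near it, 0.087 and 0.11. Its probes ranged from -0.073 on A_12_P162303 through 0.046 on A_12_P120125 to 0.32 on A_12_P162304. The latter passed an unadjusted p under 0.05, but its adjusted p was 0.418 in limma, and its N2 array of replicate 4, at -5.26, lay among the mutant values. A_12_P162305 was well above background on 3 of 4 arrays in each genotype and was left out of the test. It enters where N2 replicate 1 or mutant replicate 4 is left out, and the gene's difference was then 0.021 and 0.21, in that order.

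Reuptake depends on snf-11 (T03F7.1, chromosome V), a sodium-dependent GABA transporter of the plasma membrane. Its 1 probe, A_12_P111713, read -1.21, -1.01, -0.996 and -1.22 in N2. The mutant arrays read -1.78, -1.73, -1.65 and -1.57. All mutant arrays lay below all N2 arrays, and the gap between the groups was wider than the SD within either, 0.12 in N2 and 0.09 in the mutant. The mutant mean was lower by 0.57 (difference -0.57, SE 0.09, 95% interval -0.78 to -0.36), which is 67.2% of the N2 level with an interval of 58.2% to 77.7%. The adjusted p was 0.0915 over all genes in limma and 0.123 over all probes, and the size lay just short of the 1.5-fold limit, so snf-11 was not called. In the order of p among all genes, 43 genes came before it.

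The lower snf-11 value was found on both slides, -0.65 on slide 1 and -0.49 on slide 2. Leaving out 1 array at a time kept it between -0.61 and -0.54, with adjusted p between 0.131 and 0.234 in limma. Without both mutant arrays that stood apart, replicates 2 and 4, it was -0.61. Over all 20 alternatives the difference ranged from -0.64 to -0.49 and its adjusted p from 0.0827 to 0.801. The largest of these p came with a term for the position on the slide. That term overlaps strongly with genotype, so a larger p is built into that fit.

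Lists of tissue markers were compared between the groups too, and only the summed levels of the intestinal list did not overlap. The summed level of 4 intestinal marker genes, in multiples of the 75th percentile of an array, was 48.98 to 58.59 in N2 and 34.5 to 40.8 in the mutant, without overlap. All 4 were lower, with a median difference of -0.27. An unadjusted p under 0.05 was reached by 2, beside 12.2% of all genes, and 0 were called, beside 0.0928%. Such a sum adds intensities of different probes, so the brightest gene weighs most. Here that was act-5, at 5.33 to 5.57 in N2 and 4.67 to 5.02 in the mutant. Groups did not overlap for act-5 and elt-2 but did for ges-1 and ifb-2, where 8.11% of all genes had groups without overlap. The 4 muscle markers were lower too (median -0.15), with sums of 48.0 to 53.6 in N2 and 40.8 to 51.5 in the mutant. All 8 of these genes were well above background on all 8 arrays. The 10 pan-neuronal genes had a median difference of 0.027, with sums of 10.6 to 12.1 in N2 and 10.1 to 13.9 in the mutant. The 3 pharyngeal and 4 germline genes had medians of 0.055 and 0.0040, and of 4 epidermal genes only 2 could be tested (median -0.097). The 5 genes of the molt list all had a higher mutant mean (median 0.58). Their sums were 0.36 to 0.58 in N2 and 0.44 to 5.4001 in the mutant. Groups overlapped for each of the 5. Among them, mlt-10 read -3.49, -1.97, -3.79 and -2.77 in N2. On the mutant arrays it read -2.83, -2.35, 2.19 and 1.54, so its rise rested on replicates 3 and 4, both on slide 2. What part these markers have in the snf-11 value was not tested.

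**Figure D3:**
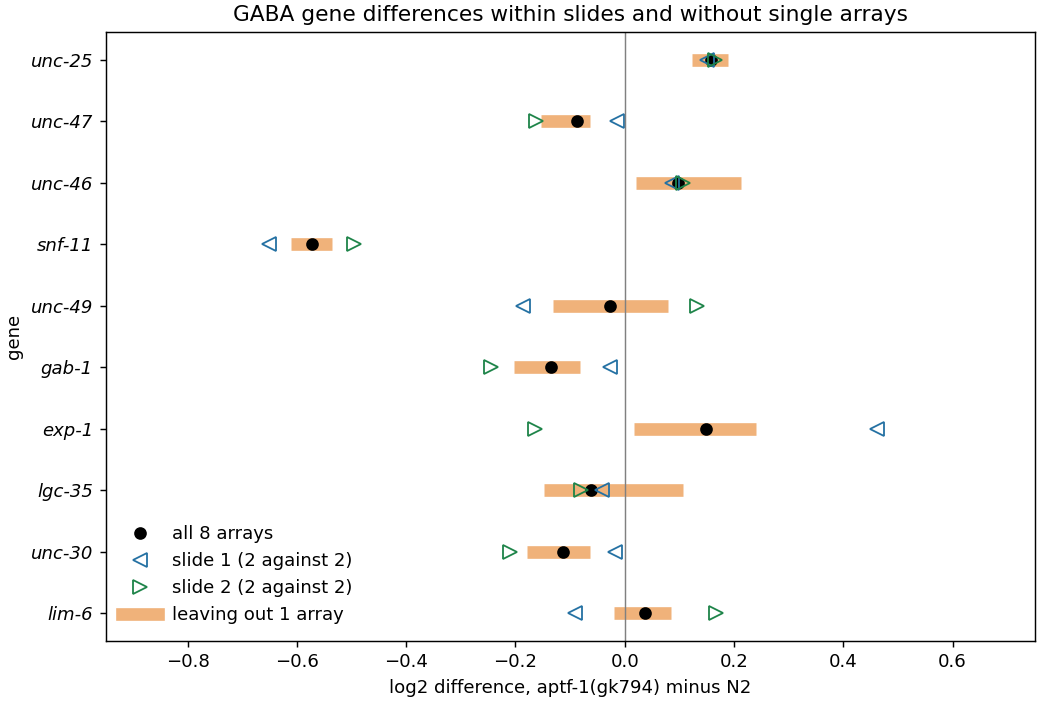
Log2 difference between the genotypes (horizontal axis) of each gene over all 8 arrays (black), within each slide of 2 against 2 arrays (triangles), and its range when 1 array at a time is left out (orange bar). For snf-11 all of these lie at or below -0.49, for unc-25 all lie between 0.12 and 0.19, and exp-1, unc-49 and lim-6 lie on opposite sides of 0 on the 2 slides.

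Inhibitory GABA responses run through chloride channels of the GABA-A type. unc-49 (T21C12.1, chromosome III) encodes the receptor subunits of body wall muscle, made as several isoforms from 1 locus. Its mean over 11 probes was -1.01, -1.09, -0.93 and -0.80 in N2. On the mutant arrays it was -1.01, -1.31, -0.67 and -0.96. The mutant arrays enclosed the whole N2 range, with replicate 2 lowest and replicate 3 highest of all 8 arrays. The means were -0.96 ± 0.12 and -0.99 ± 0.26 (SD, n = 4). The difference of -0.028 (SE 0.14, adjusted p = 0.940 in limma) corresponded to 98.1% of the N2 level, with a 95% interval of 78.5% to 122.5%. It was -0.19 on slide 1 and 0.13 on slide 2, and 0.12 without the mutant arrays of replicates 2 and 4.

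The unc-49 probes followed each other closely across arrays. On 10 of the 11, the mutant array of replicate 2 was the lowest of all 8 and that of replicate 3 the highest. The exception was A_12_P114749, the only probe whose target is named T21C12.1b. It read -0.43, -1.53, -1.39 and -1.70 in N2. In the mutant it read -2.02, -1.31, -1.54 and -1.199. Here the N2 array of replicate 1 was the highest and the mutant array of replicate 1 the lowest. Its difference was -0.26 (SE 0.30, adjusted p = 0.719 in limma), the furthest from 0 among the unc-49 probes. The remaining 10 probes, among them 3 on T21C12.1a, 5 on T21C12.1i and 1 on T21C12.1c, lay between -0.19 and 0.062. A test of unequal probe differences gave an adjusted p of 1.0 for unc-49 (limma, diffSplice).

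gab-1 (ZC482.1, chromosome III) encodes another subunit of the GABA-A receptor family. The mean of its 3 probes was -4.50, -4.53, -4.73 and -4.37 in N2. The mutant arrays gave -4.59, -4.70, -4.66 and -4.73. The mutant values lay in the lower part of the N2 range. Their difference of -0.14 (SE 0.09, adjusted p = 0.545 in limma) was 91.0% of the N2 level, with a 95% interval of 78.4% to 105.7%. On slide 1 it was -0.027, and on slide 2 it was -0.24. The probes differed in sign, with -0.35 on A_12_P173433, -0.22 on A_12_P115047 and 0.16 on A_12_P173432.

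Excitatory GABA responses run through cation channels. exp-1 (H35N03.1, chromosome II) encodes the channel of the enteric muscles. Its 1 probe read -3.86, -3.31, -3.46 and -3.22 in N2. The mutant arrays read -3.26, -3.14, -3.59 and -3.27. N2 replicate 1 was the lowest array, and without it the difference of 0.15 (SE 0.16, adjusted p = 0.682 in limma) became 0.017. The 95% interval reached from 85.8% to 143.3% of the N2 level. The slides went in opposite directions, 0.46 on slide 1 and -0.16 on slide 2. A test of that disagreement, as an interaction of genotype and slide over all genes in limma, gave an adjusted p of 0.999.

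lgc-35 (Y46G5A.26, chromosome II) encodes a GABA-gated cation channel of motor neurons. The mean of its 2 probes was -4.32, -4.34, -4.16 and -3.60 in N2. The mutant gave -4.11, -4.45, -3.91 and -4.20. N2 replicate 4 was the highest array, through A_12_P114488, where it read -2.55 and the other N2 arrays read -3.85, -3.64 and -3.55. The difference of -0.062 (SE 0.19, adjusted p = 0.896 in limma) had the largest standard error of the 10 genes and an interval of 70.9% to 129.4% of the N2 level. Without N2 replicate 4 it was 0.11, and on the slides it was -0.042 and -0.081. The other probe, A_12_P102747, gave -0.15 (SE 0.19).

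GABAergic identity is set by transcription factors that act in different neurons. unc-30 (B0564.10, chromosome IV) encodes a Pitx-type homeodomain protein that controls unc-25 and unc-47 in the D-type motor neurons. Its mean over 6 probes was -4.73, -4.38, -4.54 and -4.49 in N2. In the mutant it was -4.52, -4.78, -4.61 and -4.69. N2 replicate 1 lay among the mutant values and mutant replicate 1 among the N2 values. The difference of -0.11 (SE 0.10, adjusted p = 0.620 in limma) was 92.4% of the N2 level, with an interval of 78.8% to 108.5%. It was -0.017 on slide 1 and -0.21 on slide 2. All 6 probes were designed on B0564.10a, and 5 had a lower mutant mean. They ranged from -0.20 on A_12_P135256 to 0.064 on A_12_P113326. Both of these probes exceeded background clearly on 4 of 4 mutant arrays but on 3 of 4 from N2, so they passed the filter through the mutant alone, and the gene's difference without them was -0.14.

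lim-6 (K03E6.1, chromosome X) encodes a LIM homeobox factor that is expressed in RIS and a few other GABAergic neurons. The mean of its 3 tested probes was -2.65, -2.65, -2.51 and -2.63 in N2. The mutant arrays gave -2.72, -2.63, -2.40 and -2.55. The mutant range enclosed that of N2. The difference of 0.038 (SE 0.09, adjusted p = 0.863 in limma) was 102.6% of the N2 level, with an interval of 88.9% to 118.5%. It was -0.091 on slide 1 and 0.17 on slide 2, and -0.020 without mutant replicate 3. The probes gave 0.013 on A_12_P130193, -0.024 on A_12_P130194 and 0.12 on A_12_P130195. A further lim-6 probe, A_12_P111359, exceeded background clearly on 1 of 4 mutant arrays and on 0 of 4 N2 arrays, and no fold is given for it.

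Counted over probes, 34 of the 36 passed the filter, which asked for a signal well above background on all 4 arrays of a genotype, and 32 had it on all 8 arrays. Of the 34, 0 were called, where 0.0594% of all probes were (19 of 32007). An unadjusted p under 0.05 was reached by 3, one each of snf-11, unc-25 and unc-46, beside 11.6% of all probes. Groups did not overlap for 3, beside 7.57% of all probes. The 2 that were higher were unc-25 probes, beside 2.69% of all probes, and the 1 that was lower was that of snf-11, beside 4.88%. In all, 17 probes were higher and 17 lower in the mutant, where 55.8% of all probes were lower, with a median of 0.00080 beside -0.032 over all probes. Probe differences within a gene were unequal at an unadjusted p under 0.05 in 0 of the 7 genes with several tested probes, beside 1.65% of 5408 genes, and in 0 after adjustment, beside 0.0555%.

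**Figure D4:**
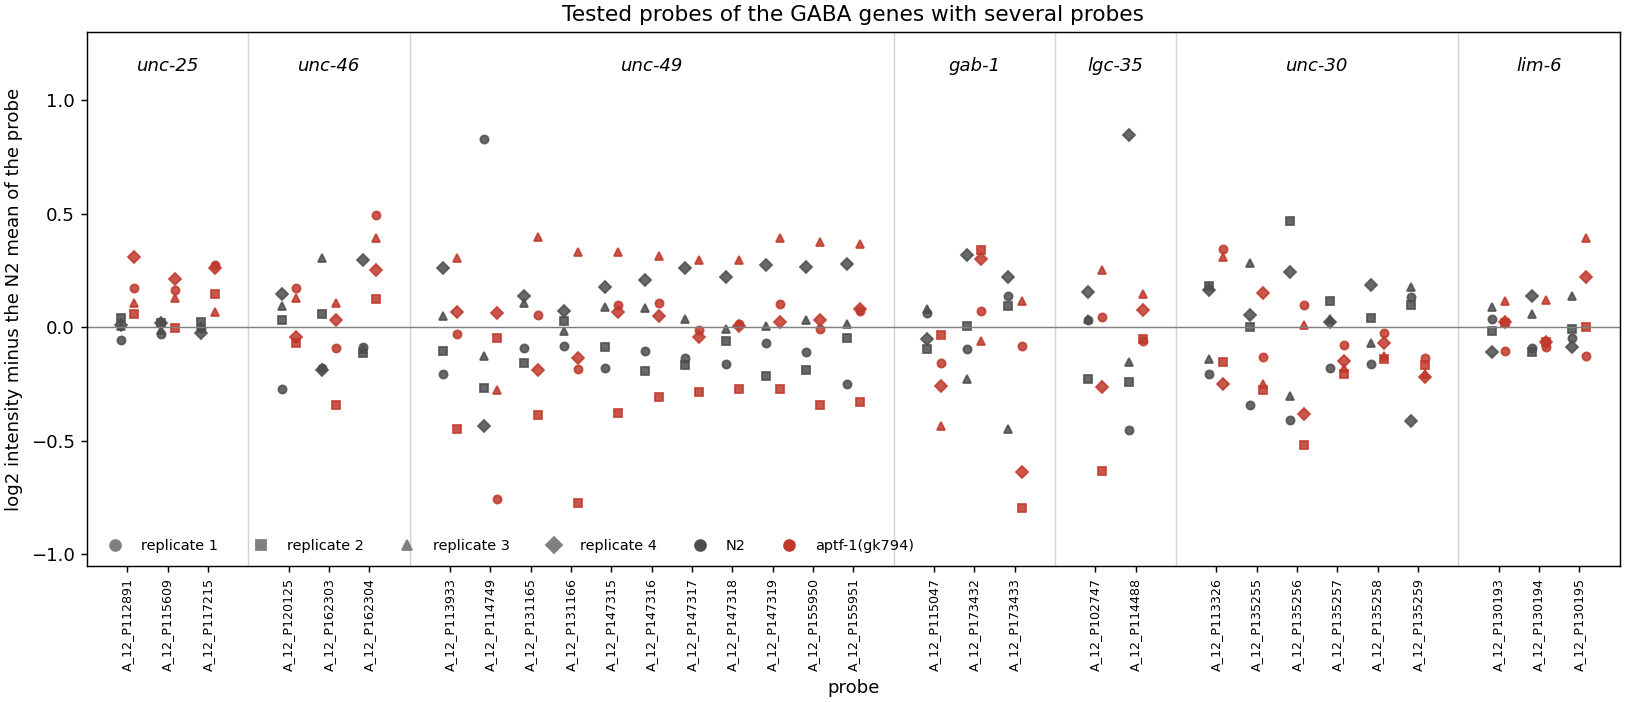
Log2 intensity minus the N2 mean of the probe (vertical axis) for each tested probe of the 7 genes with several probes, on the 4 N2 arrays (gray) and the 4 aptf-1(gk794) arrays (red), with marker shapes for the replicate numbers. For unc-25 the red points lie above the gray ones on 2 of the 3 probes, and on 10 of the 11 unc-49 probes mutant replicate 2 is the lowest and mutant replicate 3 the highest point.

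Other genes of GABA signalling were counted in 5 lists with 19 genes in all. Of these, 15 were tested and 0 were called, beside 0.0928% of all genes. An unadjusted p under 0.05 was reached by 0, beside 12.2% of all genes. Differences ranged from -0.41 to 0.27 with a median of -0.078, and 5 genes were higher and 10 lower. The smallest adjusted p among them was 0.470 in limma. In each list the genes furthest from 0 and nearest to 0 are named.

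Of the 2 enzymes that break GABA down, gta-1, the GABA transaminase, differed by -0.032 (SE 0.09), and alh-7, a homolog of succinate semialdehyde dehydrogenase, by -0.078 (SE 0.08). Both subunits of the metabotropic GABA-B receptor were lower in the mutant mean. gbb-1 read -4.35, -4.01, -5.06 and -4.43 in N2. In the mutant it read -4.77, -5.11, -4.53 and -5.06. The groups overlapped, and the difference was -0.41 (SE 0.23, adjusted p = 0.480 in limma), while that of gbb-2 was -0.17 (SE 0.10). Among channel genes related to GABA receptors, lgc-37 differed by 0.27 (SE 0.18) and lgc-38 by 0.019 (SE 0.12), and lgc-36 was not tested.

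Among 4 genes that organise GABA synapses, madd-4, a secreted protein that places receptors opposite the release sites, differed by -0.25 (SE 0.14), and frm-3, a FERM domain protein, by 0.032 (SE 0.12). Of 8 other regulators of GABAergic neurons, 5 were tested, and tab-1, ahr-1 and unc-55 were not. The nuclear receptor gene nhr-67 differed by -0.30 (SE 0.24) and the GATA factor gene elt-1 by -0.14 (SE 0.10). The homeobox gene alr-1, named after its values were seen, was the 1 gene of the 15 whose groups did not overlap, beside 8.11% of all genes. It read -3.85, -3.82, -3.84 and -3.83 in N2. Mutant values were -3.56, -3.80, -3.63 and -3.79. The difference of 0.14 (SE 0.08, adjusted p = 0.488 in limma) rested on all mutant arrays lying above a narrow N2 range.

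Genes that mark other transmitters were counted too. The acetylcholine genes among them, unc-17 and cha-1, matched no probe. Of the 9 genes of this list, 7 were matched to a probe and tested, and 0 were called, beside 0.0928% of all genes. An unadjusted p under 0.05 was reached by 1, beside 12.2% of all genes. The median difference was 0.010, with a range from -0.41 to 0.20.

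**Figure D5:**
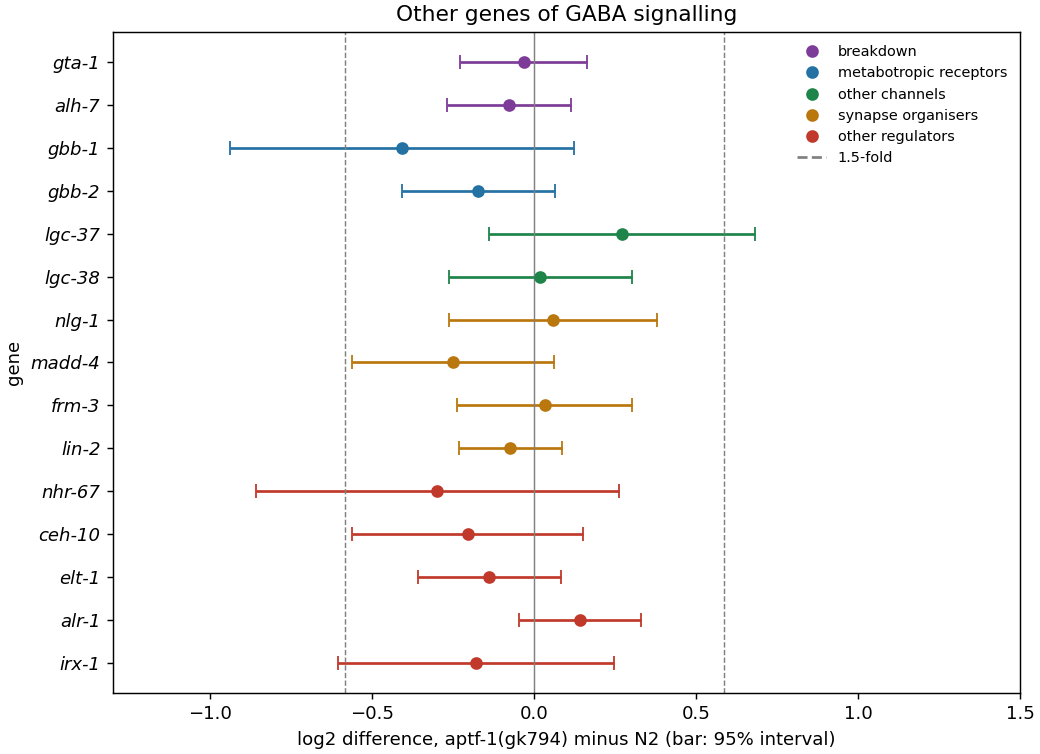
Log2 difference between the genotypes (horizontal axis) of the 15 tested genes from 5 lists of other GABA signalling genes, with 95% intervals as bars and colors for the lists. All 15 intervals include 0, and the differences run from -0.41 for gbb-1 to 0.27 for lgc-37.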

How the data were processed

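For each of the 4 aptf-1(gk794) and 4 N2 samples, 200 ng of total RNA was amplified and labelled with Cy3. The authors deposited the scanner files, whose spot intensity values are linear, background-subtracted and not scaled between arrays. Per the file headers they come from version 10.7.3.1 of Agilent's Feature Extraction software. A table of processed intensities was deposited too. In rank and percentiles it behaved like quantile normalized values, and it served only as an alternative. The labels name limma without a version.

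Controls and outlier spots (18 to 62 per array) were dropped. Log2 intensities of the spots of a probe were averaged, and each array's 75th percentile (315 to 837 on the linear scale) was subtracted. The filter kept probes with signal well above background on 4 of 4 arrays in either genotype, so a probe can enter through the genotype in which it is bright. Gene values are means over the tested probes. Names came from a table of NCBI genes for WBcel235, by locus tag or RefSeq accession, and 34266 probes (78.6%) got one. A target without a name was kept as a unit of its own in the tests over genes. No coordinates are given, because the array follows an older build. Sequences of probes or genes were not used here.

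Genotype was the only term of the limma fit (version 3.58.1, lmFit and eBayes, two-sided, under R 4.3.3), with Benjamini-Hochberg adjustment across all probes or all genes. diffSplice tested 5408 genes for unequal probe differences, and an exact permutation test was used for the deleted gene. The fits were tested on simulated data with independent noise for each probe, where 200 of 31866 probes were shifted. Of shifts of 2 on the log2 scale 85% were called, and of shifts of 1.2 it was 67%, beside 6 unchanged probes. Files were read and plots drawn in Python 3.11.15 (pandas 2.3.3, numpy 2.4.6, matplotlib 3.10.9). Precision is set by the 4 arrays of each genotype. The GABA genes, the gene lists and the rule for names were chosen with earlier results of these data known. By that rule all 10 genes and their probes are named, aptf-1 and flp-11 serve as a check, and each list of other GABA genes is represented by its called genes or else by those with the largest and smallest difference. Other lists are given as counts and summary values, and the intestinal and molt genes in the text were named after their values were seen. Alternatives were quantile normalization, median scaling, normexp with an offset of 50 on the median spot signal, the deposited table, other filters, blocks for slide, position and replicate number, other gene summaries, and fits without single arrays. The fit without both mutant arrays of replicates 2 and 4 was added after the data had been seen.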

Additional observations from a re-analysis of the deposited data

Results flagged for a closer look

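In each genotype, the highest and the lowest of the 4 values of each gene and each probe were checked for a gap to the next value that exceeds Dixon's 95% critical value. Of 90 such groups 6 had one, where 4.5 are expected, since chance gives about 1 in 20.

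unc-47 was at -3.36 on mutant replicate 1, and -3.62, -3.62 and -3.60 on the other mutant arrays. The lim-6 probe A_12_P130194 read -2.24 on mutant replicate 3, and the other mutant arrays lay between -2.44 and -2.43. The unc-30 probe A_12_P135259 read -4.18 on N2 replicate 4, and the other N2 arrays lay between -3.67 and -3.59. The unc-46 probe A_12_P162304 read -5.26 on the same N2 array, above -5.67 to -5.64 on the others. The unc-46 probe A_12_P162305, which entered no test, read -7.82 on N2 replicate 1 and -5.97 to -5.90 on the other N2 arrays.

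The lim-6 probe A_12_P111359 read -6.47 on mutant replicate 1, and -8.44, -8.40 and -8.38 on the other mutant arrays. It was in no comparison, and this was the 1 array of 8 on which it was well above background.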

How the results depend on the processing

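Of the 10 GABA genes and of their 34 tested probes, 0 were called under each alternative with the 1.5-fold limit and an adjusted p under 0.05, and so were 0 of the other GABA genes. At an unadjusted p under 0.05, 1 GABA gene (snf-11) and 3 probes (of snf-11, unc-25 and unc-46) counted, beside 2242 genes and 3702 probes in all. 4 genes (unc-25, unc-47, snf-11 and gab-1) kept their sign under all 20 alternatives, and the sign of the other 6 turned under at least 1; 184 of 200 gene values and 546 of 610 probe values kept it. For the values that turned, the cause was not tested. The arrays limit what can be seen to changes well above the standard errors of 0.07 to 0.19.

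The whole-array counts moved more. From 17 genes called, 11 remained in number with quantile normalization, with the deposited table and with the median of the probes of a gene, 7 with median scaling, 2 without a filter, and 0 with a position term, with the replicate block or without both mutant arrays of replicates 2 and 4. From 19 probes called, the numbers were 12 without a filter and 0 in the last 3 of these fits. Leaving out 1 array gave 2 to 5 genes and 4 to 10 probes. With the position term, 4 of the 10 intervals lay within a 1.5-fold change, where 9 had done so. Since N2 held the first positions and the mutant the last, that term overlaps strongly with genotype, which widens the intervals. The fit with it cannot tell genotype from position. The deviations of same-numbered arrays correlated at -0.17 for replicate 1 and at 0.24, 0.15 and 0.18 for the others. These values were not set against those of differently numbered arrays, so they do not settle whether the numbers mark pairs. The main fit did not take them as pairs. The replicate block gave 0 calls among the GABA genes.

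With slide and position as terms, the differences that turned were 0.012 for unc-30, 0.082 for unc-49, -0.32 for exp-1 and -0.011 for lim-6. Single probes turned to 0.25 and -0.64 (lgc-35, A_12_P102747 and A_12_P114488), 0.24 and 0.28 (unc-49, A_12_P131165 and A_12_P131166), 0.36 and 0.076 (unc-30, A_12_P135256 and A_12_P135259), and -0.24 and 0.61 (gab-1, A_12_P173432 and A_12_P173433). Without both mutant arrays of replicates 2 and 4, unc-49 was at 0.12 and lgc-35 at 0.096, and these probes turned: A_12_P102747 (0.15), A_12_P113933 (0.14), A_12_P130194 (0.018), A_12_P131165 (0.23), A_12_P131166 (0.074), A_12_P135256 (0.054), A_12_P147317 (0.14), A_12_P162303 (0.0081) and A_12_P173433 (0.016). With the median of the probes of a gene, unc-46 was at -0.058 and unc-49 at 0.0047. Without a filter, and with the mean of all probes of a gene, lim-6 was at -0.17, since its dim probe then entered. With normexp, lim-6 was at -0.0035, and the probes that turned were A_12_P114488 (-0.030), A_12_P115047 (0.037), A_12_P130193 (-0.019), A_12_P135255 (0.014), A_12_P147315 (-0.016), A_12_P147316 (-0.012) and A_12_P147318 (-0.045).

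Leaving out 1 array at a time gave -0.13 to 0.079 for unc-49, -0.15 to 0.11 for lgc-35 and -0.020 to 0.085 for lim-6. Among the unc-49 probes the ranges were -0.14 to 0.12 (A_12_P113933), -0.40 to 0.021 (A_12_P114749), -0.17 to 0.089 (A_12_P131165), -0.36 to 0.0046 (A_12_P131166), -0.070 to 0.17 (A_12_P147315), -0.051 to 0.16 (A_12_P147316), -0.11 to 0.081 (A_12_P147317), -0.082 to 0.11 (A_12_P147318), -0.049 to 0.17 (A_12_P147319), -0.11 to 0.13 (A_12_P155950) and -0.058 to 0.17 (A_12_P155951). For the other genes they were -0.28 to 0.011 (A_12_P102747) and -0.12 to 0.31 (A_12_P114488) in lgc-35, -0.030 to 0.17 (A_12_P113326) in unc-30, -0.044 to 0.095 (A_12_P120125) and -0.14 to 0.030 (A_12_P162303) in unc-46, and -0.023 to 0.053 (A_12_P130193) and -0.072 to 0.023 (A_12_P130194) in lim-6.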
